A study of Mus musculus with 2 samples.

Results

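The calcineurin, NFAT and Rcan genes are the 10 genes that encode calcineurin subunits (Ppp3ca, Ppp3cb, Ppp3cc and Ppp3r1), the calcineurin-dependent transcription factors (Nfatc1, Nfatc2, Nfatc3 and Nfatc4) and regulators of calcineurin (Rcan1 and Rcan2). They were chosen by name, from the Ensembl identifiers of the count and FPKM tables, and are 10 of the 55573 genes listed there. RNA was sequenced from mesenteric arteries, the vessels that feed the intestine, of wild-type C57BL/6 mice aged 10 weeks. The control library was made from arteries kept in 5 mM K+ and the depolarized library from arteries in 60 mM K+, and the labels give 60 min for either. Each library pooled 2 mice, no group carried a transgene or gene deletion, and as each condition has 1 library, differences could not be set against replicates and are given without p-values. The study's accounts of the control differ, since one has both tissues perfused for the same time and another has the control tissue taken from the distal part of the ligated vessels before the rest was depolarized. Effects of K+, of the vessel segment and of time in the chamber therefore cannot be told apart. The comparison asks how the genes of this pathway differed in arteries after sustained depolarization.

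Calcineurin is a protein phosphatase activated by Ca2+ and calmodulin. It removes phosphates from cytoplasmic NFATc proteins, which then enter the nucleus and act on DNA together with partners such as AP-1, until kinases phosphorylate them again and they are exported. Rcan proteins bind calcineurin and can inhibit it. In arterial smooth muscle the pathway is known to link Ca2+ entry through voltage-dependent channels to transcription, and the Rcan1 transcript that starts at an internal promoter is a widely used readout of NFAT activity.

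In the depolarized library Rcan1, Nfatc1 and Nfatc2 were more than 2-fold higher than in the control library, whereas none of the 10 genes was more than 2-fold lower. When scaled by the summed reads of Ppia and Hprt, Nfatc2 alone stayed past 2-fold (1.25 on the log2 scale). Rcan1 was then at 0.86 and Nfatc1 at 0.69. Ppia and Hprt are the reference genes of the study's qPCR, which averaged their cycle (Cq) values and so weighted them differently. Nfatc3 and Ppp3cc had log2(fold-change) values whose counting intervals held 0, and Ppp3cb was lower. Rcan2, Nfatc4, Ppp3ca and Ppp3r1 were higher by less than 1.4-fold. All 10 genes passed the minimum of 10 reads, summed over both libraries, as did 14829 genes of the files, of which 5.54% had a log2(fold-change) above 1 and 5.86% below -1, against 3 and 0 of the 10. Among the 9527 genes with at least the 181 reads of the lowest of the 10 (Ppp3cc), these shares were 2.98% and 0.40%. The counting interval lay above 0 for 7 of the 10 genes and for 25.0% of all genes tested, and below 0 for 1 of the 10 and for 20.3%. Among the same 9527 genes these shares were 33.58% above 0 and 22.65% below 0. The median log2(fold-change) was 0.23 over the 10 genes and -0.0047 over all genes tested. Here log2(fold-change) is the 60 mM K+ value over the 5 mM K+ value of counts scaled with TMM factors (edgeR's trimmed mean of M-values), and the bracketed limits are 95% exact (Clopper-Pearson) intervals, which cover counting error only and not the spread between arteries.

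Reads on genes totalled 10480918 at 5 mM K+ and 11289598 at 60 mM K+. With plain total counts every log2(fold-change) would be lower by 0.21, and relative to Ppia and Hprt by 0.51. Scaling by Ppia and Hprt puts the median over all genes tested at -0.51, where TMM puts it at -0.0047. With TMM, Ppia itself was 0.51 higher on the log2 scale, close to the size of that shift. Its reads are part of the sum used for scaling, so this closeness is in part built in. The scaling thus sets the sign of small differences and whether Rcan1 and Nfatc1 pass 2-fold, whereas a difference between 2 genes is free of it. The artery label was checked with 8 smooth muscle markers, which were all detected and summed to 19642 and 19237 FPKM (fragments per kilobase of transcript and per 1000000 mapped fragments) at 5 and 60 mM K+. Tagln, usually abundant in this tissue, reached only 31.0 and 35.5 FPKM.

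**Figure D1:**
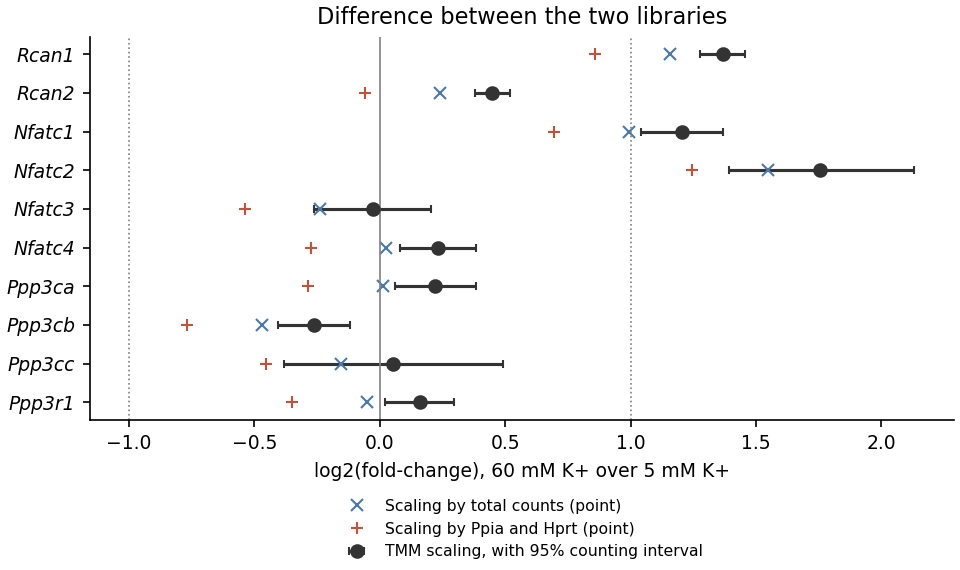
Log2(fold-change) of each of the 10 genes (60 mM K+ over 5 mM K+, TMM-scaled counts), with bars for 95% counting intervals and 1 library per condition. Nfatc2, Rcan1 and Nfatc1 lie above 1 with their whole intervals, and Ppp3cb is the gene whose interval lies below 0.

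Markers of other cell types moved as follows, and in bulk tissue fewer cells of a type and less RNA per cell cannot be told apart. The 8 lymphocyte markers held 10 reads in the control and 9 in the depolarized library, with Cd3g at 0 in both. The 8 endothelial markers summed to 1405 and 1640 FPKM, with 6 of them higher, 2 lower and a median log2(fold-change) of 0.26. Kdr, the 1 gene past 2-fold, was lower, with 168 and 73 reads. The 8 macrophage markers summed to 34.5 and 27.0 FPKM, the 8 fibroblast markers to 4626 and 3362, and neither list had a gene past 2-fold. The 8 adipocyte markers summed to 107 and 42.9 FPKM, with Adipoq, Plin1, Cfd and Pck1 more than 2-fold lower. Lep was more than 2-fold higher, on only 1 and 9 reads. The 8 nerve and Schwann cell markers summed to 264 and 271 FPKM, with Th at 0. Dbh was more than 2-fold lower, but on only 7 and 3 reads, with an interval of -3.70 to 1.01 that held 0. The 8 pancreas markers, which stand for tissue outside the artery wall, summed to 10.98 and 40.1 FPKM. Pnlip, Cela2a, Ctrb1, Cpa1 and Clps were more than 2-fold higher, Clps on only 2 and 12 reads. Amy2a5 and Prss1 were at 0. The part of these shifts in the values of the 10 genes was not tested.

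Rcan1 (ENSMUSG00000022951; chr16:92392198-92466391, minus strand) encodes the regulator of calcineurin that is itself an NFAT target. Its reads numbered 1395 at 5 mM K+ and 3352 at 60 mM K+, which is 124 and 319 CPM (counts per 1000000 reads after TMM scaling). The depolarized library was the higher one, with a log2(fold-change) of 1.37 (1.28 to 1.46), or 2.58-fold, with TMM scaling, and of 0.86 with Ppia and Hprt. This placed Rcan1 at rank 462 of the 14829 genes, within the top 3.12%. Its paralog Rcan2 (ENSMUSG00000039601; chr17:43938800-44176465, plus strand) had 2868 and 3649 reads, or 255 and 347 CPM. Its log2(fold-change) was 0.45 (0.38 to 0.52), so both Rcan genes were higher in the depolarized library, by unequal amounts. The difference between their log2(fold-change) values was 0.92 (0.80 to 1.03), which no scaling alters. The deposited FPKM of Rcan1 was 0.537 times that of Rcan2 at 5 mM K+ and 1.01 times at 60 mM K+, so Rcan2 led in the control library and the pair stood near parity in the depolarized one. Parity depends on the lengths used, since with all annotated exons joined Rcan1 stood at 118 and Rcan2 at 84.5 FPKM at 60 mM K+.

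GENCODE vM1 lists 2 separated starts of protein-coding transcripts for Rcan1, and reads counted per gene cannot separate the transcripts of one from those of the other. The 250 bases before each are shown because the data bear on a gene that is higher after depolarization and has a long and a short transcript, and those before the first start of Nfatc2 because it had the largest log2(fold-change) of the 10. All 3 are read from NCBIM37 (mm9) on the minus strand and written 5′ to 3′ in the direction of transcription, ending 1 base before the start. Capitals mark exact matches on either strand of GGAAA (the core of NFAT sites, written TTTCC when on the other strand), TGACTCA (AP-1) and TGACGTCA (the full cAMP response element, CRE).
Rcan1, upstream start, chr16:92466392-92466641: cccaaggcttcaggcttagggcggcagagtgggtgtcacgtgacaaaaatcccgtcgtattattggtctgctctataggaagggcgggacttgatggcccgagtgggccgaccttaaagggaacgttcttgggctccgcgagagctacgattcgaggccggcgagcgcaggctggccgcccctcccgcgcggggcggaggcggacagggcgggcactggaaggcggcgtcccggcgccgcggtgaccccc
Rcan1, internal start, chr16:92400323-92400572: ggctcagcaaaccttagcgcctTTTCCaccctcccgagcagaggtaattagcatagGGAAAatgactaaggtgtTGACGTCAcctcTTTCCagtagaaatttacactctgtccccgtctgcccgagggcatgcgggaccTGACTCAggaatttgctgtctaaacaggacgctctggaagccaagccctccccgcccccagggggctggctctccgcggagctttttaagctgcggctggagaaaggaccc
Nfatc2, first start, chr2:168427158-168427407: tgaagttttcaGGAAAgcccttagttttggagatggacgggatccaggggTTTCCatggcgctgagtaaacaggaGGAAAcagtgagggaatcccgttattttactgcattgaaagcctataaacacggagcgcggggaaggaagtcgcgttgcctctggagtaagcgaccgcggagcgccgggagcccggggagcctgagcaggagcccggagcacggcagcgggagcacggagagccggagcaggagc
The upstream start of Rcan1 has no capitals, whereas the internal start has 3 NFAT cores, 1 CRE and 1 AP-1 match. None of these matches overlap. Counted from the start, their first bases lie at -228, -194 and -164 (GGAAA), -176 (TGACGTCA) and -111 (TGACTCA), so the CRE stands between the second and the third NFAT core. The first start of Nfatc2 has 3 NFAT cores, at -239, -200 and -175, and neither of the other motifs.

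Over 32908 windows of 250 bases before to 50 bases after a start, from 22367 genes, GGAAA occurred in 60.75%, TGACTCA in 4.60% and TGACGTCA in 1.91%. At least 3 GGAAA cores were found in 9.10% of windows. The AP-1 and CRE motifs occurred together in 14 windows (0.04%), and all 3 motifs in 10 (0.03%), among them the internal start of Rcan1; the combination was looked at after its values were seen. Among the other starts, Nfatc4 held 3 GGAAA cores and Ppp3cb held 4, although Ppp3cb was lower in the depolarized library. Both starts of Nfatc1 held 1 core, as did the other starts of Nfatc2 and the first and the last of the 3 starts of Nfatc3. None was found at the starts of Ppp3ca, Ppp3cc, Ppp3r1 or Rcan2. TGACTCA also occurred once at the third start of Rcan2 and at the second of Ppp3r1, and TGACGTCA at no other of the 20 starts of the 10 genes. A match is a run of letters and not a measured site.

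**Figure D2:**
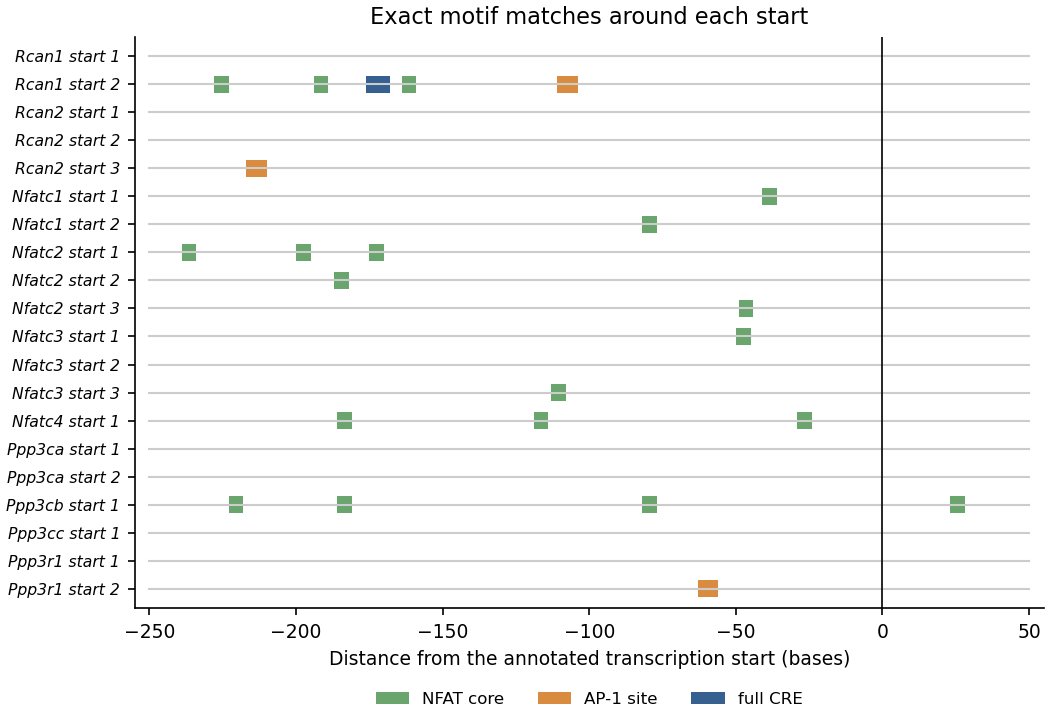
Positions of exact NFAT core, AP-1 and full CRE matches around the 20 annotated starts of the 10 genes, with the distance from the start in bases on the horizontal axis. The internal start of Rcan1 is the one row that carries all 3 motifs.

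Of the 4 NFATc factors, Nfatc1 and Nfatc2 were more than 2-fold higher in the depolarized library, and Nfatc3 and Nfatc4 lay within 1.2-fold. Nfatc1 (ENSMUSG00000033016; minus strand), which in lymphocytes and osteoclasts is known to be induced by NFAT itself, had 450 and 966 reads at 5 and 60 mM K+. In CPM these were 39.9 and 92.0, a log2(fold-change) of 1.20 (1.04 to 1.37). With total counts it was 0.99, just under the 2-fold limit. Nfatc2 (ENSMUSG00000027544; chr2:168301910-168427157, minus strand), best known as the factor of resting lymphocytes, had the fewest reads of the 10 genes in the control library, 82, against 258. These were 7.28 and 24.6 CPM, and the log2(fold-change) of 1.76 (1.39 to 2.13) ranked 263 of 14829. The gene with the highest log2(fold-change) of the 10 was thus also the lowest in level in the control library. Its control reads are the denominator of its ratio, so the ratio and this level are not independent. The interval of Nfatc2 was the widest of the 3 genes past 2-fold.

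Nfatc3 (ENSMUSG00000031902; chr8:108582740-108654437, plus strand), the isoform most often linked to arterial smooth muscle, had 323 and 295 reads. In CPM these were 28.7 and 28.1, with a log2(fold-change) of -0.03 (-0.26 to 0.20), so the interval leaves room for a change of up to about 1.2-fold either way. Nfatc4 (ENSMUSG00000023411; chr14:56443632-56452780, plus strand), a factor with roles in vessel development, had 684 and 749 reads, or 60.7 and 71.3 CPM. Its log2(fold-change) was 0.23 (0.08 to 0.38), close to the shift that total counts bring. Free of scaling, Nfatc2 exceeded Nfatc3 in log2(fold-change) by 1.78 (1.35 to 2.23), and Nfatc1 exceeded Nfatc3 by 1.23 (0.95 to 1.52) and Nfatc4 by 0.97 (0.75 to 1.20). Nfatc2 also exceeded Nfatc1, by 0.55 (0.15 to 0.96). A stretch of 219 of the 6197 exon bases of Nfatc3 overlaps Esrp2 on the other strand, which had 0 and 2 reads, and no source says that reads were counted by strand.

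All 4 calcineurin subunit genes lay within 2-fold between the libraries. Ppp3ca (ENSMUSG00000028161; chr3:136333088-136600691, plus strand), the alpha catalytic subunit, had 612 and 665 reads, or 54.3 and 63.3 CPM, and a log2(fold-change) of 0.22 (0.06 to 0.38). Ppp3cb (ENSMUSG00000021816; chr14:21318586-21365795, minus strand), the beta catalytic subunit, had 925 and 719 reads, or 82.1 and 68.5 CPM, and a log2(fold-change) of -0.26 (-0.40 to -0.12). It was the one gene of the 10 whose interval lay below 0, and it was lower under each of the scalings tried. Ppp3cc (ENSMUSG00000022092; chr14:70617705-70689257, minus strand), the gamma catalytic subunit known mainly from testis, had 92 and 89 reads, with a log2(fold-change) of 0.05 (-0.38 to 0.49). At this depth a change of up to 1.4-fold in Ppp3cc was not detectable.

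Ppp3r1 (ENSMUSG00000033953, chr11:17059266-17100378, plus strand), a Ca2+-binding regulatory subunit of calcineurin, had 840 and 874 reads. These were 74.6 and 83.2 CPM, with a log2(fold-change) of 0.16 (0.02 to 0.30), and with total counts its sign turned, to -0.05. Of its 3228 exon bases, 462 (14.3%) are shared with Wdr92 on the same strand, which had 116 and 56 reads, so the count of Ppp3r1 is uncertain to that extent. Differences between subunit genes do not depend on scaling. Ppp3ca exceeded Ppp3cb in log2(fold-change) by 0.48 (0.27 to 0.70). Ppp3cb was also below Ppp3r1, by -0.42 (-0.62 to -0.22), whereas Ppp3ca and Ppp3r1 differed by 0.06 (-0.15 to 0.28).

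Across families, the summed reads of the 3 catalytic genes were 1629 and 1473, a log2(fold-change) of -0.04 (-0.15 to 0.06). Those of the 4 NFATc genes were 1539 and 2268, a log2(fold-change) of 0.66 (0.57 to 0.76), and those of the 2 Rcan genes were 4263 and 7001, 0.82 (0.76 to 0.87). The NFATc sum was carried by Nfatc1 and Nfatc2, whereas the interval of the catalytic sum held 0. Rcan1 exceeded Ppp3ca in log2(fold-change) by 1.14 (0.96 to 1.33). Against Nfatc1 the difference was 0.16 (-0.03 to 0.35), an interval that holds 0, and against Nfatc2 it was -0.39 (-0.78 to -0.01). In all, 11 pairs of genes were compared.

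**Figure D3:**
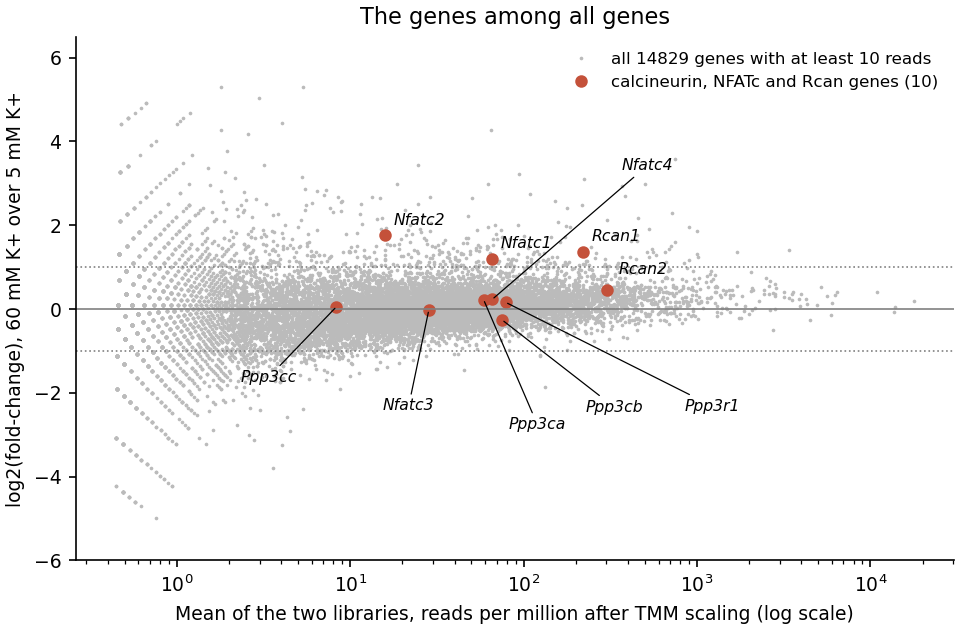
Log2(fold-change) against the mean of both libraries (CPM after TMM scaling, log scale) for the 14829 genes that passed the minimum of 10 reads, with the 10 genes in red and dotted lines at 1 and -1. Rcan1, Nfatc1 and Nfatc2 lie above the upper line, the other 7 lie between the lines, and 1 other gene falls outside the drawn range.

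Levels were compared between genes per length, in the deposited FPKM, with exact Poisson counting intervals. In the control library Rcan2 stood highest at 152 FPKM (147 to 158), ahead of Rcan1 at 81.8 (77.6 to 86.2). Then came Ppp3cb at 44.3 and Ppp3r1 at 43.9, Nfatc4 at 35.4 and Ppp3ca at 32.9, Nfatc1 at 10.7 and Nfatc3 at 9.54. The members of each of these 3 pairs had overlapping intervals and were not separated. Ppp3cc at 4.18 FPKM (3.37 to 5.13) and Nfatc2 at 2.04 (1.62 to 2.53) closed the order. The genes thus spanned from the abundant Rcan transcripts to a barely expressed Nfatc2.

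In the depolarized library Rcan1 at 182 FPKM (176 to 189) and Rcan2 at 180.1 (174 to 186) shared the top with overlapping intervals. Ppp3r1 at 42.4 FPKM stood apart from Nfatc4 at 36.0, which overlapped Ppp3ca at 33.2, which overlapped Ppp3cb at 32.0. Below these, Nfatc1 at 21.3 FPKM (20.01 to 22.7), Nfatc3 at 8.09 (7.19 to 9.07), Nfatc2 at 5.96 (5.26 to 6.74) and Ppp3cc at 3.75 (3.01 to 4.62) each stood apart from the next. Nfatc1 thus stood at 1.12 times the FPKM of Nfatc3 at 5 mM K+ and at 2.64 times at 60 mM K+. The lengths behind the FPKM are shorter than all annotated exons joined, for example 1991 bases against 6018 for Ppp3cb. With the joined exons, a choice made after the data were seen, Ppp3cb moved from position 3 to 5 in the control library and Nfatc1 from 7 to 5 in the depolarized library. The lowest 2 genes of the depolarized library then changed places, with Ppp3cc at 2.69 and Nfatc2 at 2.16, so Nfatc2 was lowest in both libraries. The Rcan genes kept the first 2 positions in both.

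**Figure D4:**
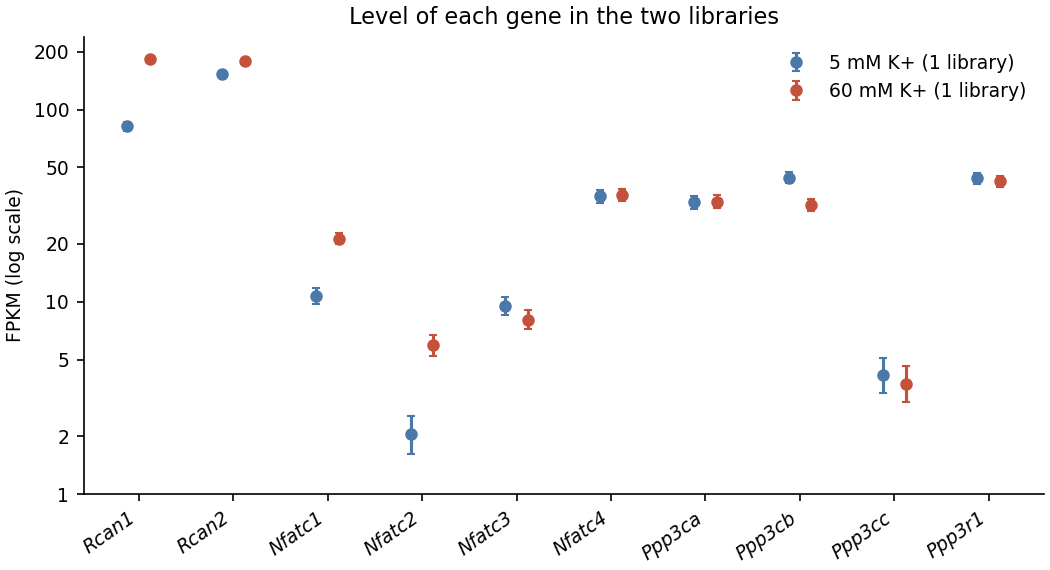
FPKM of the 10 genes in the 5 mM K+ and 60 mM K+ libraries on a log scale, with bars for 95% exact Poisson counting intervals. Rcan1 and Rcan2 lie highest in both libraries, and with the deposited lengths Nfatc2 is lowest at 5 mM K+ and Ppp3cc at 60 mM K+.

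The shares of the genes in the FPKM of their family differed between the libraries. Rcan1 made up 34.9% of the Rcan sum of 234 FPKM in the control library and 50.3% of 363 FPKM in the depolarized library. Of the NFATc sum, 57.7 and 71.4 FPKM, Nfatc4 held 61.4% and then 50.4%, Nfatc3 16.5% and then 11.3%, Nfatc1 18.5% and then 29.9%, and Nfatc2 3.54% and then 8.35%. Nfatc4 was therefore the most abundant NFATc transcript in both libraries, and Nfatc1 came next in both, with an interval that overlapped Nfatc3 at 5 mM K+. Of the catalytic sum, 81.4 and 68.9 FPKM, Ppp3cb held 54.4% and then 46.4%, Ppp3ca 40.4% and then 48.2%, and Ppp3cc 5.13% and then 5.44%. The beta gene led in FPKM in the control library, and alpha and beta had overlapping intervals in the depolarized library. These shares depend on the gene lengths used, whereas the changes in the ratio of 2 genes given above do not.

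**Figure D5:**
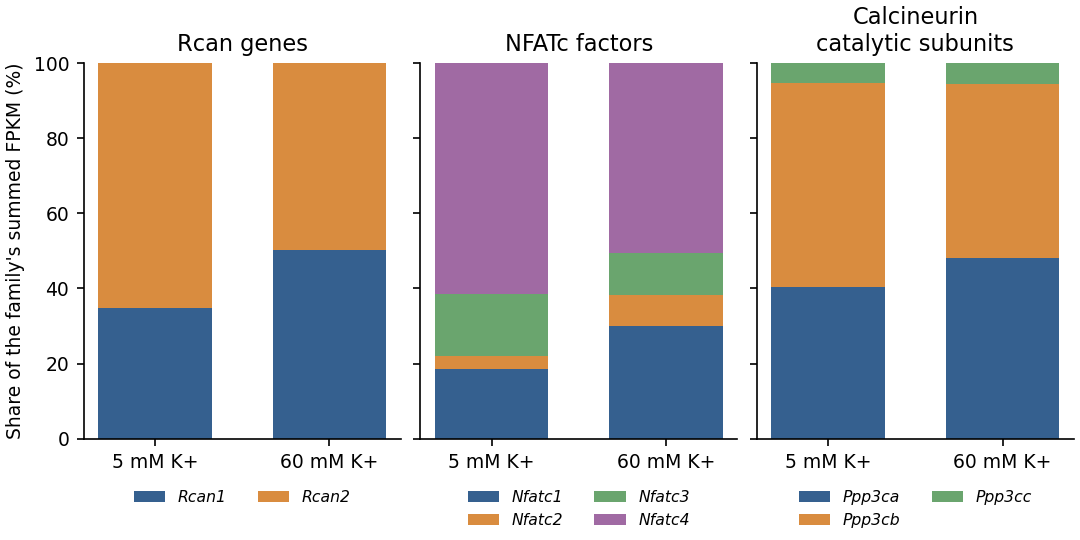
Share of each gene in the summed FPKM of its family (percent), at 5 mM K+ and 60 mM K+, for the Rcan, NFATc and calcineurin catalytic genes. Rcan1 goes from 34.9% to 50.3% of its family, and Nfatc1 and Nfatc2 take larger shares of theirs.

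The 3 further genes of these families did not pass 2-fold. Rcan3, the remaining Rcan gene, had 281 and 194 reads with a log2(fold-change) of -0.43 (-0.70 to -0.16), opposite in sign to Rcan1 and Rcan2. Nfat5, the tonicity-responsive factor that does not depend on calcineurin, had 1331 and 1309 reads with a log2(fold-change) of 0.08. Ppp3r2, the regulatory subunit of testis, had 0 reads in both libraries.

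Of 12 genes that activate, inhibit or anchor calcineurin, 10 had at least 10 reads, 1 was more than 2-fold higher and 1 more than 2-fold lower, with a median log2(fold-change) of 0.25. Over all genes tested the shares were 5.54% and 5.86%, so these counts are near the background. Myoz3, an anchor in striated muscle, had 4 and 21 reads, a log2(fold-change) of 2.49 (0.93 to 4.50). Chp2, a calcineurin B homolog, had 39 and 17 reads, a log2(fold-change) of -1.10 (-2.01 to -0.24). Both rest on few reads. The most abundant of the list were Calm2, a calmodulin gene, at 903 and 1047 FPKM with a log2(fold-change) of 0.42, and Ppia, the receptor of cyclosporin, at 613 and 756 FPKM with 0.51.

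None of 15 genes for NFAT kinases, nuclear transport factors and scaffolds passed 2-fold, all had at least 10 reads, and their median log2(fold-change) was -0.10. Over all genes tested the shares were 5.54% higher and 5.86% lower, so a count of none is near the background. The most abundant of the list were casein kinase genes. Csnk1d stood at 164 and 245 FPKM with a log2(fold-change) of 0.79, the highest of the list. Csnk1a1 stood at 166 and 201 FPKM with a log2(fold-change) of 0.48. The lowest value of the list was -0.29.

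Of 14 partners and cofactors of NFAT, 13 had at least 10 reads, 1 was more than 2-fold higher and none more than 2-fold lower, with a median log2(fold-change) of 0.25. This is near the 5.54% and 5.86% of all genes tested. Fosl1, an AP-1 subunit, was the one past 2-fold, with 20 and 66 reads, or a log2(fold-change) of 1.82 (1.08 to 2.62). The most abundant, the AP-1 genes Fos and Junb, stood at 2681 and 3099 FPKM and at 1893 and 2601 FPKM, with log2(fold-change) values of 0.42 and 0.67. Fos and Junb were thus far above the NFATc transcripts in FPKM already in the control library, whereas Fosl1, at 2.11 FPKM, was near Nfatc2.

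Of 17 genes described as NFAT targets in other cells, 13 had at least 10 reads, 5 were more than 2-fold higher and none more than 2-fold lower, with a median log2(fold-change) of 0.32, where 5.54% and 5.86% of all genes tested were past these limits. With Ppia and Hprt scaling, or with at least 50 reads per gene, 4 were more than 2-fold higher. The list was drawn up with results of these data known and is not independent evidence of a direction. The 5 were inflammatory genes: Ccl2 (47 and 346 reads, log2(fold-change) 2.98), Il6 (631 and 3152 reads, 2.42), Vcam1 (2740 and 12580 reads, 2.30), Ptgs2 (1465 and 3788 reads, 1.47) and Tnf. Tnf had only 2 and 13 reads, with a log2(fold-change) of 2.80 (0.66 to 5.99). Il2 and Fasl, targets known from lymphocytes, had 0 reads in both libraries.

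Among the 1294 genes with a mean FPKM within 2-fold of that of Rcan1, those whose log2(fold-change) lay nearest its 1.37 included Sphk1 (1.37), Plau (1.35), Plat (1.33) and Srxn1 (1.31). Sphk1 encodes sphingosine kinase, Plau and Plat the plasminogen activators, and Srxn1 sulfiredoxin. Likeness here is the difference in a single log2(fold-change) between 2 libraries, at most 0.055 for these genes, less than the width of their counting intervals.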

How the data were processed

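Poly(A)-selected RNA of mouse mesenteric arteries was sequenced in 2 libraries, 1 per condition. TopHat2 was used by the authors for alignment to mm9. The deposited counts are raw reads per gene, and the deposited FPKM values are scaled by gene length and by the total count. The submitters' processing notes name TopHat2 2.0.12, HTSeq 0.6.1 and edgeR 3.0.8 with no role, and the builds mm8 and mm9. The annotation is not given in the sources used here, so coordinates and starts are those of GENCODE vM1 (NCBIM37), in which 32601 of the 55573 listed identifiers, with 99.09% and 99.15% of the reads, had a symbol.

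TMM factors of 1.07 and 0.930 came from edgeR 4.0.16 (R 4.3.3). The minimum was 10 reads per gene, summed over both libraries, and a count of 0 was set to 0.5. A gene's log2(fold-change) has a Clopper-Pearson interval, a level a Poisson interval and a difference between 2 genes an exact conditional interval (Python 3.11.15, scipy 1.17.1). The intervals cover counting error only and not the spread between arteries, and they are too narrow where reads are PCR copies of one molecule. With 1 library per condition no test of the conditions was made. The interval script was tested on simulated data.

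The named genes were all 10 genes, the pathway genes past 2-fold with at least 10 reads, the 2 most abundant genes of each pathway list, markers at 0 or past 2-fold, and the 5 genes nearest Rcan1, of which 1 is not reported here. The 10 genes, the 5 pathway lists and 8 marker lists were chosen with earlier results of these data known. Alternatives were 4 other scalings, FPKM with pseudocounts of 0.1 and 1, minimums of 1 and 50 reads, a fold limit on the nearest interval end, TMM-rescaled FPKM and wider promoter windows, and gene lengths from joined exons, added after the data were seen. Starts within 200 bases were merged. Protein sequences were not analysed here. Figures were drawn with matplotlib 3.10.9.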

Additional observations from a re-analysis of the deposited data

How the results depend on the processing

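The 2 libraries were each the only one of their condition, so no replicate could be left out. No paired analysis was possible because 1 library stood for each condition. Upper-quartile and median-of-ratios scaling kept each of the 10 log2(fold-change) values within its counting interval. With scaling by Ppia and Hprt, only 1 of the 10 genes stayed more than 2-fold higher, in place of 3: Nfatc2 at 1.25, with Rcan1 at 0.86 and Nfatc1 at 0.69. Genes with the counting interval above 0 numbered 4 with total counts and 3 with Ppia and Hprt, in place of 7. Genes with the interval below 0 numbered 2 and 6, in place of 1. With total counts Rcan1 (1.16) and Nfatc2 (1.55) stayed past 2-fold, and Nfatc1 (0.99) missed it. With deposited FPKM and a pseudocount of 1, Rcan1 was 1.15, Nfatc1 0.93 and Nfatc2 1.19. With at least 50 reads per gene, 0 of the calcineurin regulators and anchors remained more than 2-fold higher, in place of 1, because Myoz3 had fewer. The share of all genes above 1 went from 5.54% to 2.56% with Ppia and Hprt, 14.4% with at least 1 read and 3.46% with at least 50 reads, and the share below -1 from 5.86% to 16.2%, 11.7% and 1.77%. In windows of 1000 bases before to 200 after a start, 97.67% held a GGAAA core, and 18 of the 60 match counts of the 10 genes were higher. Depth limits Ppp3cc and Nfatc2 most, and which scaling is right was not tested.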
